A study of Rattus norvegicus with 15 samples.

Results

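miR-31 is 1 of the 350 rat miRNAs on the array, and its values are those that the array design names rno-miR-31. It was selected on its low measured day 0 intensity and on the lack of a detection call in uninjured nerve. Its day 0 values are therefore given as a description, without a test. Its changes between injured days were also known when it was chosen, so the tests of those changes are not independent of the choice. Sciatic nerve of adult male rats was profiled in 5 groups of 3 arrays. Day 0 was taken as normal nerve without injury, although its sample labels read proximal stumps at 0 h after injury. The other groups were nerve on days 1, 4, 7 and 14 after injury. The submitters' texts describe the injury both as a resection and as a crush, and the sampled tissue both as the proximal stump and as the injury site. They name no strain and no transgene, and they do not say whether the 3 samples of a group came from separate animals, so the p-values reflect the spread among the samples given and may be technical.

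miRNAs are short RNAs that guide Argonaute proteins to messenger RNAs, which they recognise mainly through the seed near the 5′ end. A mature miRNA is cut from 1 arm of a hairpin precursor. miR-31 is known from skin and other epithelia, where it rises in wounds and psoriasis, and from tumour biology, where RHOA and ITGA5 are among its studied targets. After a nerve injury, Schwann cells leave the myelinating state and divide while macrophages enter and clear debris. In bulk tissue such as this, more cells of a type and more RNA per cell cannot be told apart.

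The sequences are shown because they define what was measured and how close any other miRNA comes to it. All were matched by name in RefSeq (build GRCr8), 5′ to 3′. Capitals mark the seed (bases 2 to 8) in the first 2 and the 5p arm in the hairpin. The 19-base miR-31b is printed without capitals.
rno-miR-31a-5p: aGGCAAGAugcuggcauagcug
rno-miR-31a-3p: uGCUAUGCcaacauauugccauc
Mir31 hairpin: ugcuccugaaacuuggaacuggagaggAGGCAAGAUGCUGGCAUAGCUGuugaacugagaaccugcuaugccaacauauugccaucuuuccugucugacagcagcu
rno-miR-31b: cuaugccagcaucuugccu

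RefSeq lists the array's older name as a synonym of the Mir31 gene. The 106-base hairpin lies on the minus strand of chromosome 5, at chr5:108714849-108714954, within the long non-coding RNA gene LOC130062807. Mir3554 overlaps it, and Ifne, an interferon gene, is the nearest protein-coding gene. The 22-base 5p arm takes bases 28 to 49 of the hairpin and the 23-base 3p arm bases 64 to 86. miR-31b is read from the opposite strand and is complementary to 19 bases of the 5p arm. The array carries no separate entry for the other arm of miR-31. An array name without an arm is usually the more abundant one, here the 5p arm, but the probe sequences were not used here and this was not checked.

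miR-31 had no seed relative in the RefSeq table. Of 724 mature entries, miR-31a-5p alone carries its bases 2 to 8, and every other entry differs from it by at least 6 edits. Among entries matched to array names, the closest is miR-143-5p, at 8 edits. It is printed to show how little it shares, with capitals again at bases 2 to 8.
rno-miR-143-5p: gGUGCAGUgcugcaucucugg
Entries at 9 edits include let-7d-5p and let-7i-3p. The array's miR-143, whose name gives no arm, was detected on every array, with a mean log2 level of 1.83 on day 0 and 1.18 on day 14. Whether the array reads the printed arm of miR-143 was not checked, and cross-hybridisation to the miR-31 probes was not tested.

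The software detected 164 of the 350 miRNAs on each of the 15 arrays and 97 nowhere. Each array held 200 to 239 detected miRNAs, but day 14 replicate 3 held 172. Its negative-control spots averaged -8.54 ± 10.8 (SD over spots), against averages of -1.03 to 1.19 elsewhere. The bright corner control spots read 86.1 to 113 on the day 1 arrays and 868 or more on the others. Day 0, day 1 and day 4 each had a slide of their own, so slide and day cannot be told apart there. Day 7 shared a slide with day 14 replicates 1 and 2. Of the 5 myelinating glia markers followed below, miR-338, miR-204 and miR-138 were detected on all 15 arrays. miR-211 was detected on 3 day 0 and 8 injured arrays, and miR-219-5p on 1 day 0 and 1 injured array.

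Each array reads miR-31 with 2 probes of 10 spots each. On day 0 the background-subtracted intensity, in scanner units and averaged over both probes, was 1.97, -1.95 and -0.907 on the 3 arrays. Negative-control spots on those arrays averaged -0.597, -0.913 and -0.135, with SDs of 3.201 to 4.249 over spots. The highest probe mean on day 0 was 3.63 ± 3.21 (SD over spots), of probe A_26_P00001263 on replicate 1. Of the 20 spots per array, 5, 2 and 0 were significantly positive by the scanner software, against 20 on each injured array. By its stricter test 0, 1 and 0 were well above background, the single spot being one the software also marked as an outlier.

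On day 1 the intensity was 18.7, 18.0 and 23.3. On day 4 it was 127, 158 and 145, and on day 7 it was 133, 146 and 150. On day 14 it was 122, 78.0 and 88.7. Every injured array was above every day 0 array, and the software detected miR-31 on 12 of 12 injured arrays and on 0 of 3 day 0 arrays. Among tested miRNAs, 53.7%, 77.1%, 74.9% and 62.8% had no overlap of levels with day 0, in either direction, on days 1, 4, 7 and 14. All 20 spots were well above background on each day 4 and day 7 array and on day 14 replicates 1 and 2. On day 1 the count was 7, 12 and 15, and on day 14 replicate 3, the array with the widest negative controls, it was 11. Day 1 was therefore the injured day measured closest to background.

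**Figure D1:**
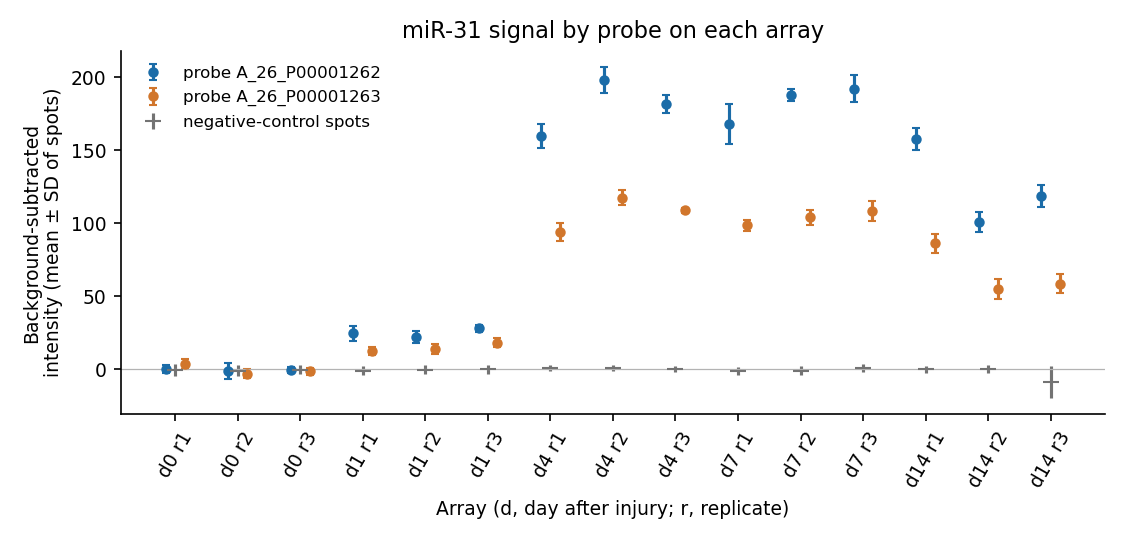
Background-subtracted intensity of the 2 miR-31 probes on each of 15 arrays (points, mean ± SD over spots of the probe) and of the negative-control spots (grey, mean ± SD). Both probes lie near 0 on the 3 day 0 arrays and above the negative controls on all 12 injured arrays.

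To compare arrays, the intensity was divided by the 75th percentile of the 164 miRNAs detected everywhere, set to a floor of 0.00362 where lower, and taken to log2. All 3 day 0 arrays were at the floor, a log2 level of -8.11. Day 1 levels were -4.97, -4.97 and -4.52, with a mean of -4.82 ± 0.26 (SD, n = 3). Day 4 levels were -2.17, -1.80 and -1.92, with a mean of -1.96 ± 0.19 (SD, n = 3). Day 7 levels were -2.30, -2.15 and -2.19, with a mean of -2.21 ± 0.08 (SD, n = 3). Day 14 levels were -2.90, -3.01 and -3.37, with a mean of -3.09 ± 0.24 (SD, n = 3). The order was day 4, day 7, day 14, day 1 and day 0, and only day 4 and day 7 overlapped.

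On the linear scale the mean relative level on day 1 was 13.9% of that on day 4. It was 83.6% on day 7 and 45.8% on day 14. As a share of all miRNA signal on the array, miR-31 took 0.0120% to 0.0182% on day 1 and 0.0962% to 0.126% on day 4. The share was 0.0875% to 0.0965% on day 7 and 0.0392% to 0.0617% on day 14. It remained a small part of the total signal on each day.

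**Figure D2:**
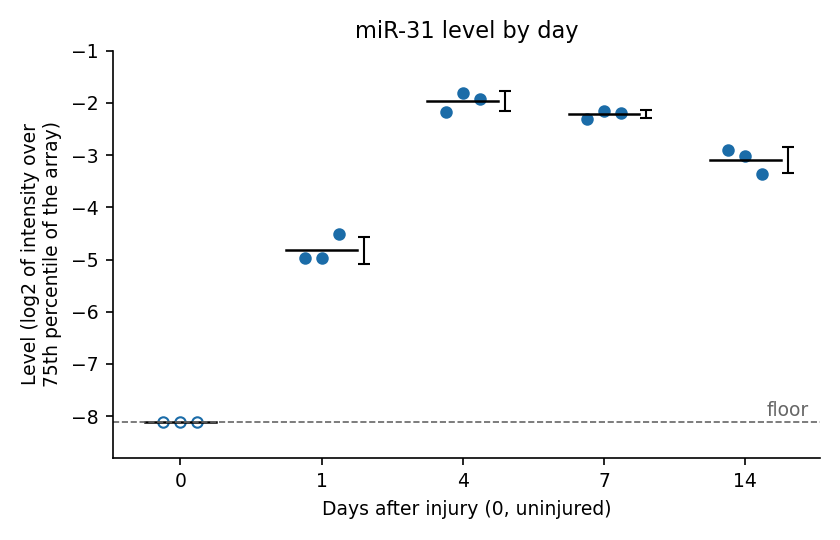
Level of miR-31 by day on the log2 scale, relative to the 75th percentile of each array. Points are arrays, horizontal lines are means of 3 and bars are SDs; open points on day 0 are at the floor (dashed line). Levels are highest on days 4 and 7 and lower on day 14.

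Because miR-31 was not detected on day 0, its difference from day 0 is given as an approximate lower bound. It compares the day's mean log2 level with the mean, over the day 0 arrays, of the lowest level of any detected miRNA or miR-31's own level, whichever was higher. In the main setting the bound was 6.61-fold on day 1, 47.9-fold on day 4, 40.2-fold on day 7 and 21.9-fold on day 14. It depends on the setting. With the software's total gene signal it was 4.89-fold on day 1. Without day 0 replicate 3 it was 39.3-fold on day 4, 33.0-fold on day 7 and 18.0-fold on day 14. These bounds describe the contrast for which miR-31 was chosen and carry no test. In those contrasts with day 0, 60.6%, 65.8%, 62.8% and 66.7% of the 231 tested miRNAs passed the limma test on days 1, 4, 7 and 14.

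Whether the level changed between injured days was tested with limma, with p-values adjusted by the Benjamini-Hochberg method over all 231 miRNAs. From day 1 to day 4 miR-31 rose 7.25-fold, by 2.86 ± 0.14 on the log2 scale (SE, limma, adjusted p = 7.43e-09). In this comparison 51.5% of tested miRNAs passed, so passing is common. The size of the rise was not: among the 200 miRNAs detected on all 6 arrays it was the largest, and the next was miR-21, an injury-induced miRNA, at 1.52. Day 7 was 6.08-fold above day 1 (log2 2.60 ± 0.14, limma adjusted p = 2.44e-08; 58% of miRNAs passed). That was again the largest of 200, ahead of miR-21 at 1.68. Under another background correction, described in the closing section, the changes were 1.31 and 1.09 on the log2 scale and miR-31 ranked 2 and 3 from the top in these 2 comparisons.

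On day 14 miR-31 was still 3.31-fold above day 1 (log2 1.73 ± 0.14, limma adjusted p = 1.10e-06; 55.4% of miRNAs passed). The change was the largest of the 168 measured in both groups, by a small margin over miR-542-3p at 1.62. It ranked 2 without day 1 replicate 2 or without day 14 replicate 1, and 11 under that other background correction, where it was 0.51.

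**Figure D3:**
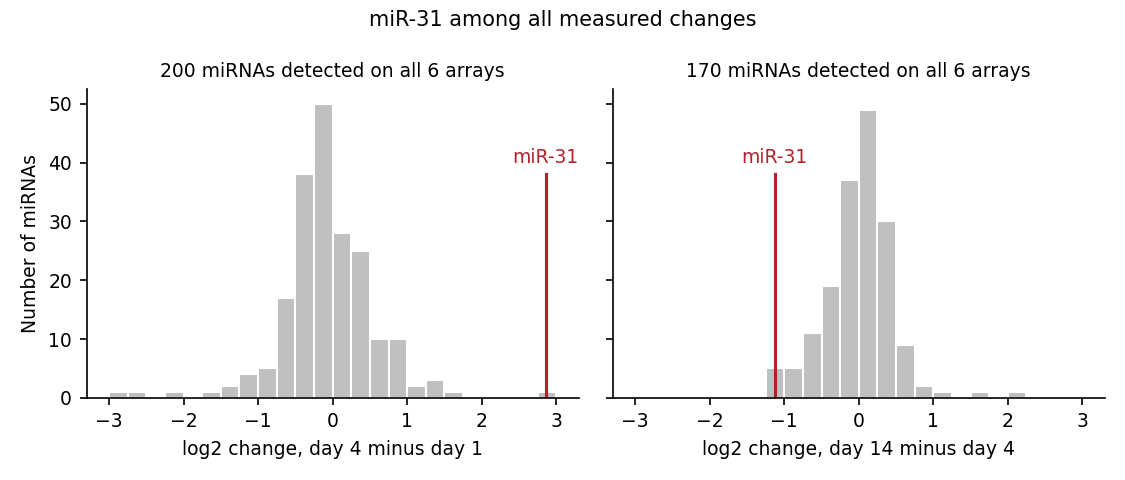
Histograms of log2 change for miRNAs detected on all 6 arrays of a comparison, day 4 minus day 1 (left, 200 miRNAs) and day 14 minus day 4 (right, 170 miRNAs), with miR-31 as a red line. miR-31 lies at the upper end on the left (2.86) and near the lower end on the right (-1.13).

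Between day 4 and day 7 the change was -0.25 ± 0.14 on the log2 scale (95% interval -0.56 to 0.06, limma adjusted p = 0.356), and the arrays overlapped. The test passed 6.06% of miRNAs here. Without scaling between arrays the change was 0.0036, so its sign was not settled.

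From day 4 to day 14 miR-31 fell 2.19-fold, by 1.13 on the log2 scale (SE 0.14, limma adjusted p = 7.55e-05; 38.5% of miRNAs passed). Among 170 changes only 2 were lower, the lowest being miR-18a, from the miR-17-92 cluster that dividing cells express, at -1.24. From day 7 to day 14 miR-31 fell 1.84-fold, by 0.88 on the log2 scale (SE 0.14, limma adjusted p = 0.00285; 13.9% of miRNAs passed). Among 170 changes only that of miR-7a was lower, at -0.89. On the shared slide, with day 14 replicate 3 left out, the change from day 7 to day 14 was -0.74 (limma adjusted p = 0.00844). Without scaling the change from day 4 to day 14 was -0.60 (limma adjusted p = 0.00416).

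The day 0 arrays, all at the floor, add no spread to the fit. Fitted on the 12 injured arrays alone, the standard error was 0.15 in place of 0.14, and the 2 falls had limma adjusted p of 0.000198 (day 4 to 14) and 0.00298 (day 7 to 14). With the floor at the lowest detected level of any array, a log2 of -10.7, the day 0 arrays differed among themselves and the standard error was 0.48. The falls then had limma adjusted p of 0.0800 and 0.227 and did not pass, with the same sizes.

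The median change over all tested miRNAs lay between -0.08 and -0.02 in these 6 comparisons. Arrays of the 2 days did not overlap in 5 of the 6 comparisons. The share of tested miRNAs without overlap was 60.6% for day 4 against day 1, 72.3% for day 7 against day 1, 54.5% for day 14 against day 1, 50.6% for day 7 against day 4, 51.5% for day 14 against day 4 and 38.1% for day 14 against day 7. Over the 12 injured arrays an exact permutation test of the F ratio between the 4 days gave p = 0.00013, from 2 of 15400 partitions as extreme as that observed. The smallest p it can give is 6.49e-05. An exact test of 3 arrays against 3 could not go below 0.10, so single pairs were not tested that way.

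The 2 probes differed in brightness and moved together. Probe A_26_P00001262 averaged an intensity of 24.99 ± 3.01 (SD, n = 3 arrays) on day 1, 180 ± 19 on day 4, 183 ± 13 on day 7 and 126 ± 29 on day 14. Probe A_26_P00001263 averaged 14.9 ± 3.1, 107 ± 12, 104 ± 5.0 and 66.7 ± 17.1 on the same days. The first was the brighter on all 12 injured arrays, by a ratio of 1.53 to 2.02, and the extremes of that ratio fell on day 1 and on day 14 replicate 3. The rise from day 1 to day 4 was 2.86 with either probe alone. From day 4 to day 14 the level changed by -1.07 with the first and by -1.24 with the second, and both passed the limma test.

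In the authors' deposited log2 table miR-31 stood at 0.136, 0.329 and 0.0768 on the day 0 arrays and at 4.12, 3.98 and 4.73 on day 1. It stood at 7.52, 7.93 and 7.82 on day 4, at 7.43, 7.64 and 7.60 on day 7 and at 7.02, 6.49 and 6.18 on day 14. The days fell in the same order as in the scanner files. The last array's column has another median than the rest, 0.834 against 4.12.

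Among miRNAs not detected before injury, miR-31 had 1 companion that was detected on every injured array. That rule includes day 14 replicate 3, which detected only 172 miRNAs. miR-130b, miR-34c and miR-351 were also detected on no day 0 array, and on 10, 9 and 8 injured arrays. Of 123 miRNAs detected on no day 0 array, 13 were detected on all 3 arrays of at least 1 injured day, and only miR-31 and miR-132 on all 12 injured arrays. miR-132, which is induced by the transcription factor CREB in active neurons, had mean log2 levels of -6.09 on day 0 and -4.64, -3.82, -4.02 and -4.28 on days 1, 4, 7 and 14. Its own undetected day 0 level lay above the lowest detected level, so the rule used for miR-31 gives its fitted differences, 2.74-fold, 4.84-fold, 4.20-fold and 3.52-fold above day 0. It too was highest on day 4. No miRNA was detected on all day 0 arrays and on no injured array.

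The miRNAs most like miR-31 were ranked by Pearson's r of log2 levels among the other 230 tested. Over all 15 arrays they were miR-21 (r = 0.989), miR-132 (0.986), miR-130b (0.969), miR-221 (0.966) and miR-34c (0.966). Over the 12 injured arrays, which leave out the step from day 0, they were miR-503 (0.984), miR-34c (0.977), miR-674-3p (0.960), miR-21 (0.960) and miR-351 (0.949). The points share days, slides and scaling, and the values are a description. miR-21 and miR-34c, one of the p53-induced miR-34 family, stand in both sets.

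Likeness of shape did not mean likeness of size. The mean log2 level of miR-21 was 1.98 on day 0, 3.49 on day 1, 5.01 on day 4, 5.17 on day 7 and 4.66 on day 14. miR-503 was at -3.71 on day 0, -3.99 on day 1, -2.60 on day 4, -2.89 on day 7 and -3.17 on day 14. It was thus present before injury, and day 1 was its lowest mean. miR-34c was at -6.07 on day 1, -4.81 on day 4, -4.74 on day 7 and -5.26 on day 14, and was detected on 9 of 12 injured arrays. miR-351 was detected on 8 and was at the floor on day 1.

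**Figure D4:**
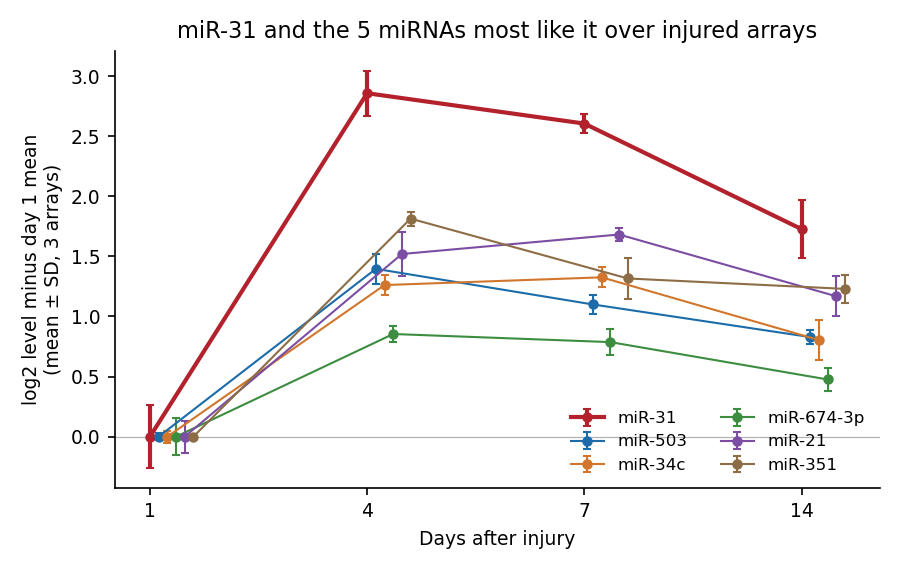
Mean log2 level minus the day 1 mean (± SD, 3 arrays per day) for miR-31 and the 5 miRNAs with the highest correlation over the 12 injured arrays. All lie above day 1 from day 4 on, and miR-31 lies highest, at 2.86 on day 4 and 1.73 on day 14; miR-351 is at the floor on day 1, so that its differences depend on the floor.

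Beside miR-31, 12 further miRNAs known to respond to inflammation or tissue injury were followed from a list. On days 1, 4, 7 and 14, 7, 6, 6 and 5 of the 12 rose against day 0 and 1, 1, 2 and 3 fell. The risers of each day include miR-132, which no day 0 array detected. It entered the test only through the injured groups, so its rise is not independent of that filter. Over all tested miRNAs 16.9%, 20.3%, 17.3% and 16% rose and 43.7%, 45.5%, 45.5% and 50.6% fell. The list's median change was 0.66, 0.81, 0.39 and 0.18, against -0.26, -0.26, -0.32 and -0.37 over all tested miRNAs. The choice of scaling moved that overall median to between -0.41 and 0.13. Over 4 other scalings 7 to 10, 6 to 10, 6 to 7 and 6 to 8 of the list rose, and 1 to 2, 1 to 3, 1 to 2 and 1 to 2 fell. The shares of all tested miRNAs given here and for the lists below belong to the main scaling. Counts under other scalings therefore stand without a background share. The list was drawn up with earlier results of these samples known, so its direction is not independent evidence. miR-21 rose by 3.03 ± 0.12 on day 4, and the pair miR-221 and miR-222, known to target the cyclin-dependent kinase inhibitor p27, by 2.03 ± 0.10 and 2.19 ± 0.19 (SE, n = 3; limma adjusted p at most 5.54e-07 for the 3). miR-146b, induced by inflammatory signalling, rose by 1.42 ± 0.13 on day 4 and by 1.64 ± 0.13 on day 14 (limma adjusted p = 9.43e-07 and 3.56e-07). miR-146a, its seed relative, fell by 0.68 on day 4 (SE 0.10, limma adjusted p = 3.67e-05). The 3 that fell on day 14 were miR-182, miR-210 and miR-34a, with changes of -0.88, -0.67 and -0.40 (limma adjusted p at most 0.0157). miR-210 also fell on day 7, with a change of -0.75 (limma adjusted p = 0.000634). miR-203 and miR-223 of this list are counted again in the epithelial and leukocyte lists below.

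Of the 7 epithelial markers, miR-200a, miR-200b, miR-200c, miR-141 and miR-429 were detected on 0 of 15 arrays. The other 2 members, miR-203 and miR-205, were detected on every day 0 array, and of them 0 rose on any injured day, while miR-205 fell by 0.32 on day 4 (SE 0.10, limma adjusted p = 0.0150). Over all tested miRNAs 16% to 20.3% rose and 43.7% to 50.6% fell on the injured days. The day 4 fall of miR-205 did not pass when arrays were scaled to their total signal or to the percentile of every miRNA, or without day 14 replicate 3. On day 14 miR-203 and miR-205 changed by 0.02 and 0.17 in the main scaling and did not pass, but both rose under each of 4 other scalings. The day 4 median of the pair turned with the scaling. It was -0.29 in the main scaling, -0.33 with quantile normalisation and -0.44 without scaling. With the percentile of every miRNA it was 0.03, and with the total signal 0.10. The list's summed relative level was 0.0838 to 0.0963 on day 0 and 0.0721 to 0.0928 on day 4. The part of epithelial cells in the miR-31 level was not tested.

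Leukocyte markers did move. Of 5, 3 rose on each injured day and 0, 1, 1 and 1 fell on days 1, 4, 7 and 14. Of all tested miRNAs, 16% to 20.3% rose and 43.7% to 50.6% fell on these days. Both arms of miR-142 rose on each of these days, miR-223 on days 1, 4 and 7 and miR-342-3p on day 14, while miR-150, abundant in lymphocytes, fell from day 4 on. Over 4 other scalings 3 to 5 rose and 0 to 1 fell on each day. Their summed relative level was 1.62 to 1.92 on day 0, 3.17 to 4.26 on day 1, 2.87 to 3.23 on day 4, 2.904 to 3.203 on day 7 and 2.20 to 2.81 on day 14. miR-223, a myeloid marker, had its highest mean on day 1, at 1.18, and was at 0.53 on day 4. miR-142-3p, common to blood cells, was highest on day 7, at 0.35. The highest sum was on day 1, but the members of the list were highest on different days. miR-142-5p was highest on day 7, at -3.43, miR-342-3p on day 14, at -1.82, and miR-150 on day 0, at -1.23. The part of blood cells in the miR-31 level was not tested.

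Of the myelinating glia markers, 0 of 4 tested rose, and 3, 3, 3 and 4 fell on days 1, 4, 7 and 14, where 43.7%, 45.5%, 45.5% and 50.6% of all tested miRNAs fell. The day 1 and day 14 falls include miR-211, which was detected on 0 and 2 arrays of those days. The untested member, miR-219-5p, was detected on 1 day 0 and 1 injured array. Over 4 other scalings 2 to 3 fell on days 1, 4 and 7 and 1 to 2 on day 14, and 1 rose on day 1 with scaling to the total signal. With day 14 replicate 3 left out, 2 fell on day 1 and 2 on day 14. Their summed relative level was 16.9 to 25.9 on day 0 and 8.74 to 10.3 on day 4. miR-338 fell by 1.27 on day 4 (SE 0.16, limma adjusted p = 1.61e-05). Of 5 muscle markers, 0 rose, and 1, 2, 2 and 1 fell on days 1, 4, 7 and 14, miR-499 on each day and miR-1 on days 4 and 7. Over 4 other scalings 0 to 1, 2 to 4, 1 to 2 and 1 fell, and without day 14 replicate 3, 0 fell on day 1. The muscle sum ranged from 0.738 to 16.3 on day 0, the highest coming from 1 array, and from 1.66 to 3.96 on day 1 and 0.452 to 0.560 on day 4. Of the 2 erythrocyte markers, miR-451 rose on day 1 and miR-144 fell on day 14, the latter under none of 4 other scalings and not without day 14 replicate 3. Their sum was 0.734 to 3.98 on day 0, 3.04 to 9.53 on day 1 and 1.72 to 3.70 on day 4. The part of these tissues in the miR-31 level was not tested.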

How the data were processed

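Total RNA was hybridised to 1-colour Agilent miRNA arrays. The deposited scanner files hold spot intensity values from Agilent Feature Extraction 10.7.3.1, background-subtracted by the software, per the file headers. The authors also deposited a value table, whose values read as log2, and it served as an alternative. Outlier and control spots were left out, and spots were averaged per probe and probes per miRNA. Levels were divided by the 75th percentile of each array, floored and log2-transformed. The floor was the median over arrays of the lowest detected level. The test took the 231 miRNAs that some group detected on its 3 arrays, with limma 3.58.1 (R 4.3.3) fitting 5 group means together (10 residual degrees of freedom and 3.28 from the prior). Tests were two-sided, with Benjamini-Hochberg adjustment and a threshold of 0.05. The limma step was tested on simulated data. Tables were made with Python 3.11.15, pandas 2.3.3 and numpy 2.4.6, and figures with matplotlib 3.10.9. The 3 arrays per group limit the precision.

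miR-31 and the lists were chosen with earlier results of these data known, changes between days included. Named were miR-31 and its probes, the 5 most correlated miRNAs over 15 and over 12 arrays, miRNAs with the same detection pattern, the nearest sequences and list members. Sequences came from RefSeq, where 304 of 350 array names matched. miR-155, a member of the inflammation list, was not analysed here. For the muscle and erythrocyte lists, counts and sums are given.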

Additional observations from a re-analysis of the deposited data

How the results depend on the processing

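Of the 6 comparisons between injured days, the 3 with day 1 kept direction and call under all 17 alternatives each. Several of these, such as the replicate block and the lowest floor, alter only the estimate of the spread for miR-31, so the direction could not change there. No alternative separates day 1 from its slide. The changes ranged from 1.31 to 3.48 (day 4), 1.09 to 3.28 (day 7) and 0.51 to 2.29 (day 14), the lowest each with normexp on the median signals, which adds an offset of 50 and was chosen after seeing the data. The fall from day 4 to day 14 ranged from -1.24 to -0.60 and that from day 7 to day 14 from -0.99 to -0.58. Both lost their call with the lowest floor, also chosen after seeing the data, at changes of -1.13 and -0.88. Day 7 minus day 4 was not called under any alternative and had a positive sign, 0.0036, without scaling. Leaving out 1 array at a time kept all calls, with ranges of 2.78 to 3.01, 2.53 to 2.76 and 1.63 to 1.88 against day 1, -0.36 to -0.17 for day 7 minus day 4, -1.23 to -1.05 for day 14 minus day 4 and -0.97 to -0.81 for day 14 minus day 7. The exact permutation p over the injured days ranged from 0.00013 to 0.00058 over 4 other scalings.

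The log2 lower bounds over day 0 moved more than the spread between replicates in several settings. The software's total gene signal gave 2.29, 5.34 and 5.09 on days 1, 4 and 7. The 75th percentile over all miRNAs gave 5.80, 5.59 and 4.71 on days 4, 7 and 14, and no scaling gave 5.42 and 4.82 on days 7 and 14. Scaling to the total signal gave 5.85 and 5.59 on days 4 and 7, and the lowest floor gave 5.83, 5.57 and 4.69 on days 4, 7 and 14. A day 0 limit of 3 software errors gave 5.42 and outlier spots kept gave 5.41 on day 7. Leaving out 1 array gave 2.44 to 3.099, 5.30 to 5.94, 5.04 to 5.69 and 4.17 to 4.81. The cause of these shifts was not tested. Replicate numbers are shared between groups, but arrays with the same number did not deviate together, with a median r of -0.05 over 30 pairs (-0.78 to 0.59), against 0.02 over 60 other pairs. With the replicate block the changes were 2.86, 2.60 and 1.73 against day 1, -0.25 for day 7 minus day 4, and -1.13 and -0.88 for day 14 against days 4 and 7, with a standard error of 0.15, and no call changed. Of 240 list counts under alternatives, 193 stayed within 1.5 times the reported count. These include counts of 0 that stayed 0, so the share does not measure how stable the other counts are. Signal over background limits day 1 most.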
